A study of Mus musculus with 6 samples.

Results

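The genes described here are 10 genes known as transcriptional targets of MLL-AF9, the fusion protein that drives the leukemia of this study: Hoxa5, Hoxa7, Hoxa9, Hoxa10, Meis1, Pbx3, Mef2c, Myb, Myc and Cdk6. They were taken as a list of names, but earlier results of these data were known when the list was chosen. The names were matched by Ensembl identifier to the symbols of the GENCODE M21 mouse annotation. All 10 were found among the 54532 genes of the files, and all 10 passed the filter on low values, which left 17152 genes for testing.

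RNA of sorted cells of C57BL/6 mice was sequenced in 6 libraries, 1 for each condition. The 4 macrophage libraries came from WT mice (no leukemia, PBS), WT/FE mice (no leukemia, iron), MA9 mice (leukemia, PBS) and MA9/FE mice (leukemia, iron), and the 2 leukemia cell libraries came from MA9 and MA9/FE mice. FE marks iron dextran given by repeated intraperitoneal injection, with PBS as its control. MA9 mice were young adult recipients of GFP+ leukemia cells, which had been made by infecting c-kit+ BM cells with a retrovirus that carries MLL-AF9. A viral promoter therefore drives the fusion gene, and reads of the fusion transcript cannot be told apart here from those of its mouse parent genes. By the labels the macrophages were from spleen and the leukemia cells from BM, but the methods of the study describe BM macrophages, a conflict that remains. Kind of cell and labelled tissue therefore cannot be told apart. The number of mice behind a library was not given in the sources used here, and with 1 library per condition the spread between mice is unknown.

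MLL (gene symbol Kmt2a) is a histone methyltransferase that keeps HOX genes active in hematopoietic stem and progenitor cells. In MLL-AF9 its amino-terminal part is joined to AF9 (Mllt3), which brings in the elongation machinery and the H3K79 methyltransferase DOT1L, so that target genes such as MEIS1 and genes of the HOXA cluster stay highly transcribed. HOXA9 binds DNA with the TALE homeodomain proteins MEIS1 and PBX3, and MYB, MYC, MEF2C and CDK6 are factors on which growth or self-renewal of MLL-rearranged leukemia cells is known to depend. In normal blood formation most of these genes are on in stem and progenitor cells and are lowered as myeloid cells mature.

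The deposited values are FPKM (reads divided by the exon length of the gene and by the depth of the library), from which between 16085346 and 19518359 reads per library were recovered. The 15 macrophage markers were all detected in the 4 macrophage libraries, where Adgre1, the gene of F4/80, had 32.2 to 54.5 FPKM. Adgre1 does not set these libraries well apart, since the leukemia cells had 28.6 and 27.5 FPKM of it. In the fit described below, 11 of the 15 were called lower in leukemia cells. The other 4, Adgre1, Csf1r, Cd68 and Cd163, did not pass. B cell markers were higher still in these libraries, with a summed level of 1277 to 2286 FPKM over 10 genes against 536 to 1205 FPKM over the 15 macrophage markers. Cd79a, a chain of the B cell receptor complex, had 415 to 802 FPKM there against 0.832 and 1.0 FPKM in the leukemia cells. The leukemia cells held 245 and 251 FPKM of the macrophage markers and 22.8 and 21.8 FPKM of the B cell markers. The libraries labelled as macrophages thus also hold transcripts of other cells, and they are called macrophages below only because the labels do so. In these bulk samples, fewer cells of a type and less RNA per cell cannot be told apart.

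Promoter windows of 8 of the 10 genes, 11 windows in all, were matched in the RefSeq table of GRCm38.p6, the assembly of mm10, and Pbx3 and Myc were not matched. Shown here are the 250 bases before the start of Hoxa9 and Hoxa10, the Hoxa genes of the list with the largest gap between leukemia cells and macrophages, and of Cdk6, whose iron ratio in macrophages was the furthest from 1 of the 10 genes, each 5' to 3' on the strand of its gene. Capitals mark CACGTG, the E-box that MYC and MAX bind, or TATAAA, the TATA box, on either strand (TTTATA for the latter). The windows lie at chr6:52227371-52227620 (minus strand) for Hoxa9, chr6:52234940-52235189 (minus strand, one of 2 starts of the gene) for Hoxa10 and chr5:3343643-3343892 (plus strand) for Cdk6. In GENCODE M21 Hoxa9 and Cdk6 begin further upstream, at 52231089 and 3341485. Their windows therefore lie inside the genes as annotated there, and those upstream starts were not examined.
Hoxa9: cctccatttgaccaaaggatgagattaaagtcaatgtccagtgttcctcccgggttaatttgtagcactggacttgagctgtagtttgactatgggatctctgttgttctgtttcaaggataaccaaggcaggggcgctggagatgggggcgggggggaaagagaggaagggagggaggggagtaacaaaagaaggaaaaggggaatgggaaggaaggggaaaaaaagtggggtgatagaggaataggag
Hoxa10: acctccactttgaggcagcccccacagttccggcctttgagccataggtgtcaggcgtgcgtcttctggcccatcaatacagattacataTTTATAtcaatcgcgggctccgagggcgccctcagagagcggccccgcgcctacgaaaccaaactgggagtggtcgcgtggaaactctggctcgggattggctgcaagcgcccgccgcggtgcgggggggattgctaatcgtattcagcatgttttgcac
Cdk6: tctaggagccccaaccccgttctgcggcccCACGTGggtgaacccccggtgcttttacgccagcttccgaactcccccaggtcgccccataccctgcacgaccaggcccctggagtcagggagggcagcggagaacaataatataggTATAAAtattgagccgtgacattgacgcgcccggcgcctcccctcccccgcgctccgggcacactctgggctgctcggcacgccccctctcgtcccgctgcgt
In windows of 300 bases, which add 50 bases after the start, CACGTG was found in the Cdk6 window and in none of the other 10, against 7.15% of the 32851 promoters in the table. TATAAA was found in 4 windows, of Cdk6, Hoxa10 and Mef2c, against 13.6% of all promoters. The motif TGATTNAT of HOX with its TALE partners, present in 3.22% of all promoters, and TGACAG of MEIS, present in 19.2%, were found in 0 of the 11 windows. The Hoxa9 window holds neither of the capitalised motifs and only 4 CpG in its 300 bases, against a median of 12 over the 11 windows and of 7 over all promoters.

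The HOXA genes, Meis1, Pbx3, Myb and Cdk6 were many times higher in leukemia cells than in macrophages, whereas Myc and Mef2c had similar levels in both. The fit over the 6 libraries (limma, with terms for kind of cell, iron and leukemia in the host) called 8 of the 10 genes higher in leukemia cells at an adjusted p of 0.05 or less, and Myc and Mef2c did not pass. Of all 17152 genes 43.3% were called in this comparison, 20.4% higher and 22.8% lower. The term for kind of cell sets leukemia cells against the macrophages of leukemic mice at equal iron. Libraries of WT and WT/FE macrophages do not enter the value of this difference, but they do enter its standard error and p-value. This holds for all limma differences between leukemia cells and macrophages given below. The median difference of the 10 genes was 2.90 on the log2(FPKM + 1) scale, against -0.02 over all genes tested. In 9 of the 10 genes both leukemia libraries lay above all 4 macrophage libraries, which held for 33.0% of all genes. The exception was Mef2c. A fit with kind of cell alone, which takes in all 4 macrophage libraries, gave other differences. That of Hoxa9 was 4.89 in place of 4.56, and that of Hoxa5 was 3.60 in place of 3.90.

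**Figure D1:**
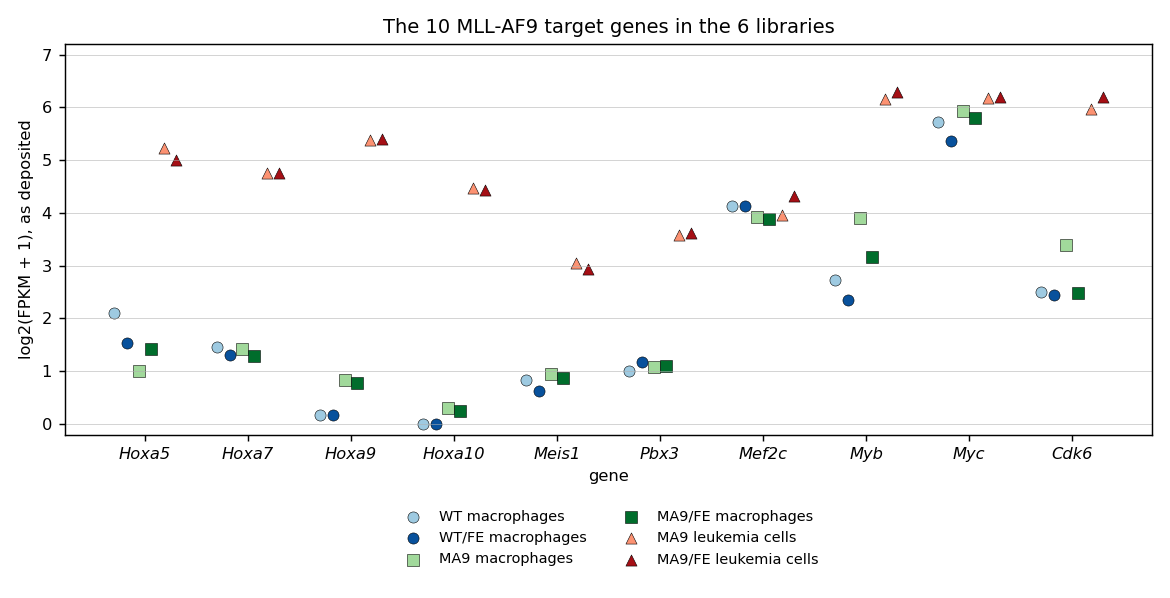
Level of each of the 10 genes, as log2(FPKM + 1) of the deposited values, in each of the 6 libraries (circles, macrophages without leukemia; squares, macrophages of leukemic mice; triangles, leukemia cells; dark symbols, iron). For 8 genes the triangles lie far above all other symbols (for Hoxa9 at 40.6 and 41.0 FPKM against at most 0.791), while those of Myc lie just above the other symbols and those of Mef2c among them.

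Hoxa9, the HOX factor most closely tied to MLL-rearranged leukemia, had 40.6 FPKM in MA9 and 41.0 FPKM in MA9/FE leukemia cells. Macrophages of mice without leukemia had 0.119 FPKM after PBS and 0.128 after iron, and those of leukemic mice had 0.791 and 0.724 FPKM. The lowest leukemia library was therefore 51.4 times the highest macrophage library, and both macrophage libraries of leukemic mice lay above both libraries of mice without leukemia. The limma difference between leukemia cells and macrophages of leukemic mice was 4.56 ± 0.14 (SE) on the log2(FPKM + 1) scale (adjusted p = 7.3e-05). Hoxa10, which lies next to Hoxa9, had 21.2 and 20.6 FPKM in MA9 and MA9/FE leukemia cells. No read of it was counted in macrophages of mice without leukemia, with PBS or iron, and 13 and 10 reads, or 0.234 and 0.190 FPKM, in those of leukemic mice. Its gap of 88.7 times between the lowest leukemia and the highest macrophage library was the widest of the 10 genes, and its limma difference was 4.17 ± 0.14 (adjusted p = 8.0e-05).

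Hoxa5 had 36.6 FPKM in MA9 and 31.2 FPKM in MA9/FE leukemia cells, against 3.28 (PBS) and 1.90 (iron) in WT macrophages and 1.0 (PBS) and 1.69 (iron) in MA9 macrophages. Unlike Hoxa9 and Hoxa10, it was lowest among the macrophages in those of leukemic mice. Its limma difference was 3.90 ± 0.26 (adjusted p = 0.000394). Hoxa7 stood at 26.2 and 25.9 FPKM in MA9 and MA9/FE leukemia cells and at 1.76 (PBS) and 1.49 (iron) FPKM in WT macrophages and 1.68 (PBS) and 1.45 (iron) FPKM in MA9 macrophages. It varied least of the 4 HOXA genes among the macrophages, with a limma difference of 3.39 ± 0.14 (adjusted p = 0.000114). Exons of Hoxa7 share 586 bases, or 20.4% of its exon length, with the antisense gene Hoxaas3, which had 3.72 and 3.57 FPKM in leukemia cells and at most 0.372 in macrophages. Whether the counting used strand was not given in the sources used here.

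The other HOXA genes showed where along the cluster transcription was high. Hoxa6, between Hoxa5 and Hoxa7, had 32.3 and 29.0 FPKM in leukemia cells and 1.64 (PBS) and 1.77 (iron) FPKM in WT macrophages and 0.538 (PBS) and 0.640 (iron) FPKM in MA9 macrophages. The neighbours on either side were far lower in leukemia cells: Hoxa4 had 2.18 and 2.0 FPKM, and Hoxa11 had 0.554 and 0.514 FPKM. Hoxa3 (3.91 and 3.68 FPKM) and Hoxa2 (1.33 and 1.55 FPKM) were low as well, and Hoxa13 had no reads in any library. Among the Hoxa genes given here, levels over 20 FPKM in leukemia cells were thus found from Hoxa5 to Hoxa10. Hoxa2, Hoxa3, Hoxa4, Hoxa6 and Hoxa11 were all called higher in leukemia cells. Of these, Hoxa2, Hoxa4 and Hoxa11 passed the filter only because of their reads in leukemia cells, which favours a difference in advance. No gene of the other HOX clusters was called higher in leukemia cells, among the 3 tested. Hoxb4 had 0.558 and 0.524 FPKM in leukemia cells against 3.03 to 3.79 in macrophages (limma difference -1.43, adjusted p = 0.00166), and 0 of the 9 Hoxd genes had enough reads to be tested. Hoxc4 had no reads in leukemia cells against 0.605 to 1.39 FPKM in macrophages, and it passed the filter only through the macrophage libraries, which favours a difference in advance.

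**Figure D2:**
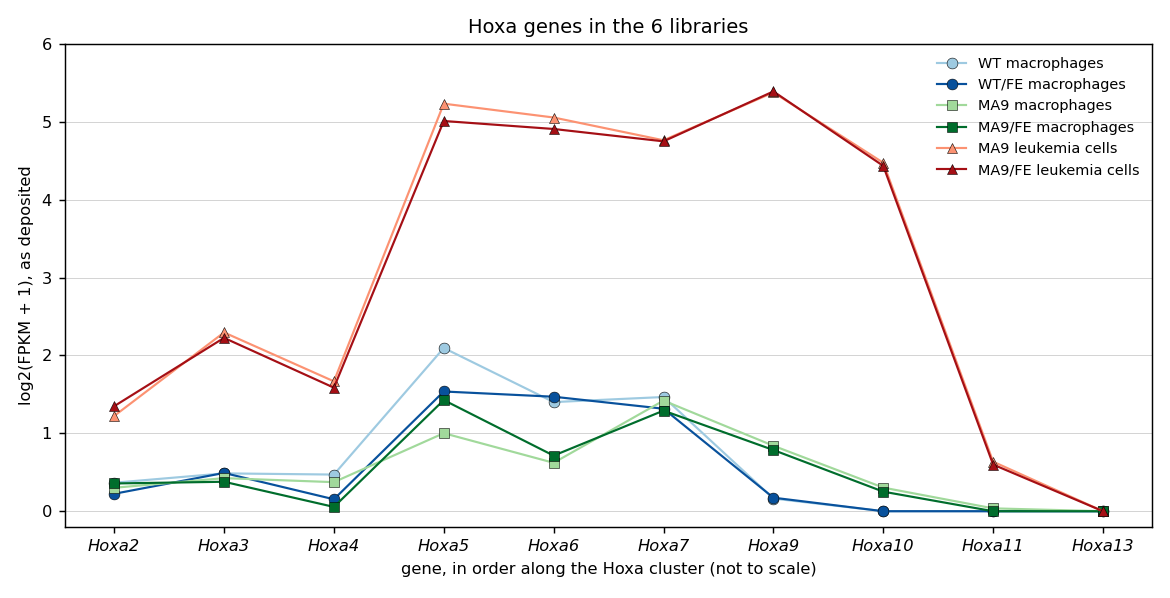
Hoxa genes in their order along the cluster (horizontal axis, not to scale) with their level as log2(FPKM + 1) in each library. The leukemia lines rise from Hoxa4 (2.18 and 2.0 FPKM) to Hoxa5 (36.6 and 31.2 FPKM), stay high to Hoxa10 and fall at Hoxa11, while all macrophage lines stay at or under 3.28 FPKM.

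Meis1 and Pbx3, the TALE partners of HOXA9, were lower than the HOXA genes themselves. Meis1 had 7.27 FPKM in MA9 and 6.66 FPKM in MA9/FE leukemia cells, against 0.773 (PBS) and 0.548 (iron) in WT macrophages and 0.933 (PBS) and 0.820 (iron) in MA9 macrophages. Its lowest leukemia library was 7.18 times its highest macrophage library, with a limma difference of 2.08 ± 0.14 (adjusted p = 0.000394). Of its exon bases, 9.77% are shared with Gm37818 on the same strand and 8.51% with the antisense gene Gm16140, so its reads are in part uncertain. Pbx3 had 10.9 and 11.2 FPKM in MA9 and MA9/FE leukemia cells and between 1.01 and 1.26 FPKM in the 4 macrophage libraries. Its limma difference was 2.49 ± 0.14 (adjusted p = 0.000268). Among the other TALE genes described here, 1 of 4 tested, Pknox1 (difference 0.53), was called higher and 1 lower in leukemia cells, with a median difference of 0.28. The lower one, Meis3 (0.122 and 0.141 FPKM against 2.85 to 5.14, difference -2.02), passed the filter only through the macrophage libraries, which favours a difference in advance. The median of the other 3 was 0.47. Pbx2, at 22.3 and 19.9 FPKM in leukemia cells and 18.9 to 23.6 FPKM in macrophages, did not pass the test (difference 0.09, adjusted p = 0.566).

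Myb, a transcription factor of immature hematopoietic cells, had 70.6 and 77.0 FPKM in MA9 and MA9/FE leukemia cells. It had 5.64 (PBS) and 4.08 (iron) FPKM in WT macrophages and 14.0 (PBS) and 7.91 (iron) FPKM in MA9 macrophages, so that the 2 libraries of leukemic mice were the highest of the 4. Its limma difference between leukemia cells and macrophages of leukemic mice was 2.68 ± 0.21 (adjusted p = 0.000676). Cdk6, a kinase that drives entry into S phase together with D-type cyclins, had 61.3 and 72.2 FPKM in MA9 and MA9/FE leukemia cells. Its levels were 4.69 (PBS) and 4.47 (iron) FPKM in WT macrophages and 9.48 (PBS) and 4.62 (iron) FPKM in MA9 macrophages, where the MA9 library without iron stood apart from the other 3. The limma difference was 3.13 ± 0.27 (adjusted p = 0.000895).

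Myc, the general growth regulator, was high in all libraries, with 71.7 and 72.1 FPKM in MA9 and MA9/FE leukemia cells and 51.5 (PBS) and 39.9 (iron) FPKM in WT macrophages and 59.8 (PBS) and 54.5 (iron) FPKM in MA9 macrophages. The leukemia libraries lay above the others, but by 1.2 times at the closest, and the limma difference of 0.31 ± 0.14 did not pass (adjusted p = 0.120). Mef2c, a MADS-box factor of myeloid progenitors and of B cells, had 14.5 and 19.1 FPKM in leukemia cells and 16.4 (PBS) and 16.6 (iron) FPKM in WT macrophages and 14.1 (PBS) and 13.9 (iron) FPKM in MA9 macrophages. The groups overlapped, and the limma difference was 0.22 ± 0.14 (adjusted p = 0.242). B cell markers, at 1277 to 2286 FPKM in sum in the macrophage libraries and all 10 called lower in leukemia cells (4 of them passed the filter only through the macrophage libraries), move with this comparison, and their part in the Mef2c and Myc values was not tested.

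Genes related to these factors changed in both directions. Of 8 paralogs of Mef2c, Myb, Myc and Cdk6, limma called 3 higher and 5 lower in leukemia cells, with a median difference of -0.88. Of the lower genes, 2 passed the filter only through the macrophage libraries, which favours a difference in advance: Mef2b (no reads and 0.319 FPKM against 2.88 to 16.8) and Mycn (0.0334 and 0.0170 FPKM against 0.325 to 2.48). Without them 3 genes were called higher and 3 lower, with a median of 0.01. Mycl fell, with 2.61 and 3.16 FPKM against 16.4 to 21.4 (difference -2.25). Mybl2, a cell cycle gene, rose by a difference of 1.28, from 2.72 to 11.3 FPKM in macrophages to 22.4 and 22.2 FPKM in leukemia cells. In the MYC network, Mxi1 rose (15.2 and 15.4 FPKM against 3.75 to 4.20, difference 1.68), Mxd1 fell (6.55 and 6.28 FPKM against 10.7 to 16.8, difference -0.97), and 6 of 8 genes, with the partner Max among them, did not pass. Of 12 MYC targets 7 rose, such as the nucleolar genes Nolc1 (difference 0.69) and Nop56 (difference 0.66), with a list median of 0.52, and the cyclin gene Ccnd2 fell by 1.76 on the log2 scale.

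CDK6 acts with cyclins and against inhibitors, and here its partners changed in both directions. Of 11 genes 6 were called higher, 4 lower and 1 neither, with a median of 0.77. Ccnd3, the D-type cyclin gene that rose, had 31.9 and 30.8 FPKM in leukemia cells against 13.4 to 18.5 in macrophages (difference 0.87), whereas Ccnd1 had 9.65 and 11 FPKM against 28.5 to 60.0 (difference -1.73). The inhibitor genes Cdkn1a (28.9 and 27.7 FPKM against 2.70 to 6.49, difference 2.24) and Cdkn2a (10.9 and 8.41 FPKM against 0.874 to 2.36, difference 1.68) rose, while Cdkn2b (0.238 and 0.564 FPKM against 1.83 to 4.46) was called lower but passed the filter only through the macrophage libraries.

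The cofactors of the fusion protein had a smaller median difference than its targets. Of 17 genes of the MLL machinery 5 rose, 3 fell and 9 did not pass in leukemia cells, and their median difference was 0.34. Ash2l (16.7 and 17.8 FPKM against 5.53 to 6.56, difference 1.28) and Wdr5 (42.6 and 37.9 FPKM against 14.9 to 19.3, difference 1.09), core subunits of MLL complexes, rose. Mllt3, the gene of AF9 itself, had 0.225 and 0.173 FPKM in leukemia cells against 1.25 to 2.07 in macrophages (difference -1.36, adjusted p = 0.000818), and Psip1, whose product LEDGF tethers MLL to chromatin, fell by 0.79. Kmt2a (11.6 and 11 FPKM against 11.3 to 24.0), Dot1l (21.7 and 20.5 FPKM against 12.1 to 17.2), and Men1 (18.7 and 20.3 FPKM against 13.7 to 16.6) did not pass (adjusted p from 0.0507 to 0.226). Of 13 further genes known as MLL-AF9 targets, 8 were called higher, 2 lower and 3 did not pass, with a median of 0.77. One of the 8, Mecom (0.802 and 0.469 FPKM against at most 0.0473), passed the filter only through the leukemia libraries, which favours a difference in advance. Without Mecom the median was 0.99. Eya1, a transcriptional coactivator, had 6.23 and 7.47 FPKM against 0.497 to 0.645 (difference 2.31), and Gfi1, a repressor of granulocyte precursors, had 57.1 and 44.9 FPKM against 2.95 to 4.72 (difference 3.29). Sox4, a factor of immature cells, had 13.8 and 13.2 FPKM against 2.0 to 4.32 (difference 1.85). Id2 (8.63 and 13.9 FPKM against 69.1 to 96.6, difference -2.75) and Flt3, a cytokine receptor (12.7 and 22 FPKM against 29.3 to 42.6, difference -0.86), fell.

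**Figure D3:**
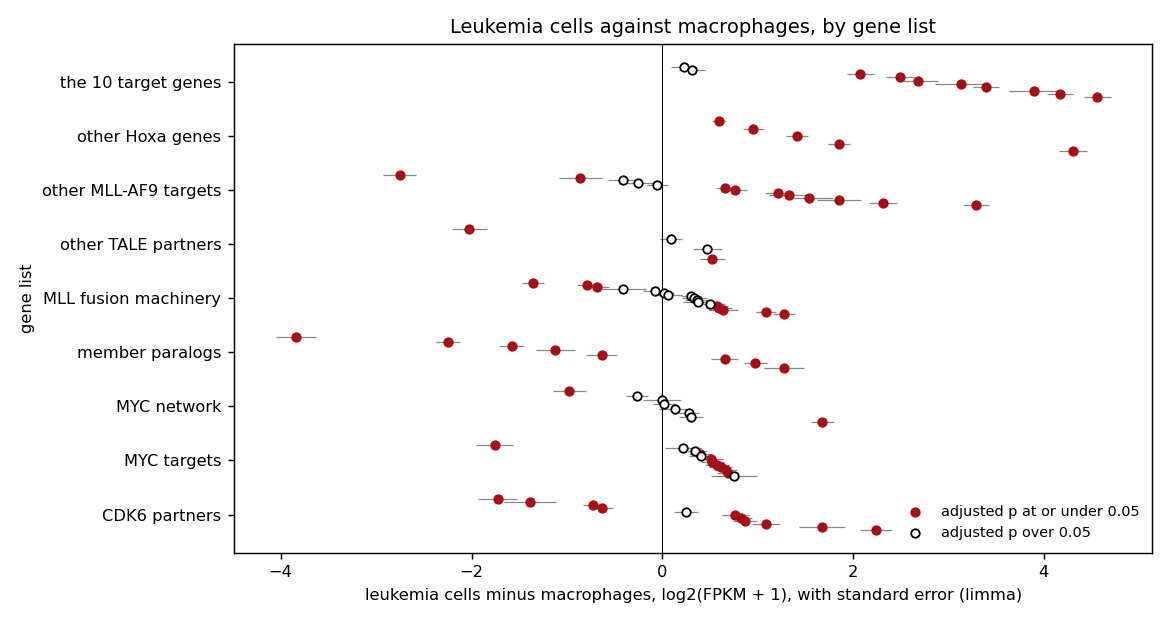
Difference between leukemia cells and macrophages of leukemic mice for each tested gene (horizontal axis, log2(FPKM + 1) with the limma standard error), grouped by list (vertical axis). Filled points have an adjusted p of 0.05 or less. Of the 10 target genes 8 lie between 2.08 and 4.56 and the open points are Mef2c and Myc, while the paralogs and the TALE and CDK6 partners lie on both sides of 0.

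In leukemia cells the 10 genes were ordered, by mean FPKM of both libraries, as Myb (73.8), Myc (71.9), Cdk6 (66.8), Hoxa9 (40.8), Hoxa5 (33.9), Hoxa7 (26.0), Hoxa10 (20.9), Mef2c (16.8), Pbx3 (11.1) and Meis1 (6.97). Myb, Myc and Cdk6 were not separated, since their ranges over both libraries overlap, whereas all other neighbours in this order had ranges that did not. FPKM divides by all annotated exon bases of a gene, 13989 for Cdk6 and 1877 for Hoxa5, so a gene with long annotated exons that are little used is understated. Over the 6 libraries, the genes most like Hoxa9 among 7063 with at least 10 FPKM in a library were Mapkapk2 (Pearson r 0.9997), Taf1d (0.9994), Tmx4 (0.9993), Dnajc10 (0.9992) and Chst13 (0.9992). The 6 points form a high pair and a low 4, and 271 genes reached at least 0.99, so this likeness is not rare. Hoxa10 had r = 0.998 with Hoxa9, Pbx3 0.993, Hoxa7 0.992, Cdk6 0.988, Myb 0.978, Hoxa5 0.959, Myc 0.846 and Mef2c 0.287.

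Whether leukemia in the host changed these genes in macrophages was read from the same fit. None of the 10 genes was called in MA9 against WT macrophages, where 0.968% of all genes (166) were called and 20.5% had an unadjusted p under 0.05. The values nearest to a call belonged to Myb and Hoxa9. Myb differed by 1.0 ± 0.21 on the log2 scale (limma, adjusted p = 0.10). After TMM scaling, 6 of the 10 genes (Hoxa9, Hoxa10, Meis1, Myb, Myc and Cdk6) were higher in both MA9 libraries than in both WT libraries, as were 26.3% of all genes, and for Cdk6 this rests on the scaling, since its deposited values of 4.62 (MA9/FE) and 4.69 (WT) run the other way. In pairs of libraries at equal iron, Myb was 2.47 times higher in MA9 than in WT and 1.97 times higher in MA9/FE than in WT/FE macrophages, with counting intervals of 2.29 to 2.67 and 1.78 to 2.17. Such intervals are exact 95% intervals from the reads of both libraries, and they cover counting error only, not the difference between mice. On the log2(FPKM + 1) scale Myb and Hoxa5, in opposite directions, passed a fold of 2 between MA9 and WT macrophages, as did 4.67% of all genes, and none of the 10 did so between MA9/FE and WT/FE macrophages (4.59% of all genes).

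Hoxa9 was 6.58 times (3.63 to 12.9) higher in MA9 than in WT and 5.74 times (3.07 to 11.7) higher in MA9/FE than in WT/FE macrophages, on 75 against 13 and 65 against 12 reads. Its limma difference was 0.65 ± 0.14 (adjusted p = 0.101). Hoxa10, with 13 reads in MA9 and 0 in WT macrophages, was 4.94-fold higher when a floor of 3 reads was set for the WT library. With the same floor it was 3.53-fold higher in MA9/FE than in WT/FE. These 2 values leave out the counting error of the reads in leukemic mice, so they are not lower bounds. The limma difference of Hoxa10 was 0.28 ± 0.14 (adjusted p = 0.320). These reads were few: the level in MA9 macrophages was 1.94% of that in MA9 leukemia cells for Hoxa9 and 1.10% for Hoxa10. Hoxa5 ran the other way, at 0.304 times (0.199 to 0.452) the WT level in MA9 macrophages, but at 0.901 times (0.608 to 1.33) the WT/FE level in MA9/FE macrophages (limma difference -0.60 ± 0.26, adjusted p = 0.275). Cdk6 was 2.01 times (1.88 to 2.15) higher in MA9 than in WT but 1.05 times (0.961 to 1.14) in MA9/FE over WT/FE macrophages, and its limma difference of 0.46 ± 0.27 did not pass (adjusted p = 0.394).

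Exon length moved with one of these pairs. In MA9/FE over WT/FE macrophages the median log2 difference was 0.28 in the fifth of genes with the shortest exons and -0.20 in the fifth with the longest, against -0.04 and -0.01 in MA9 over WT. Relative to the 500 genes nearest in exon length, Cdk6 stood at 0.37 in place of 0.06 in the iron pair and at 0.89 in place of 0.87 in the other, so that its pairs differed less. Hoxa5 stood at -0.41 in place of -0.10 with iron and at -1.03 in place of -1.10 without. With iron, Myb went to 1.0 from 0.83 and Hoxa9 to 0.66 from 0.62. Hoxa10 went to 0.09 from 0.26, Myc to 0.26 from 0.46 and Meis1 to 0.46 from 0.24, and Mef2c turned from -0.22 to 0.13. The genes used for these length comparisons all had at least 1.0 FPKM in both libraries of a pair. Hoxa9, Hoxa10 and Meis1 lay under that level in MA9/FE and WT/FE macrophages, where the pseudocount understates differences. Their values relative to genes of like exon length therefore cannot be read. The part of exon length in these differences was not tested further.

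Markers of other cells moved with leukemia in the host as well. Over 10 myeloid progenitor markers, among them Flt3 and Sox4 of the target list above, the summed level was 78.1 (PBS) and 75.4 (iron) FPKM in WT macrophages, 236 (PBS) and 143 (iron) FPKM in MA9 macrophages, and 4709 and 4097 FPKM in leukemia cells, and 6 of the 10 were called higher in MA9 than in WT macrophages. Mpo, a granule enzyme of promyelocytes, had 1.63 and 1.53 FPKM in macrophages of mice without leukemia, 47.1 (PBS) and 22.9 (iron) FPKM in those of leukemic mice and 775 and 744 FPKM in leukemia cells. Over 9 erythroid markers the sum was 106 (PBS) and 202 (iron) FPKM in WT macrophages and 286 (PBS) and 461 (iron) FPKM in MA9 macrophages, with 2 called higher. In MA9 and MA9/FE leukemia cells this sum was 390 and 153 FPKM. Globin genes made up much of it: Hba-a1 had 103 (PBS) and 210 (iron) FPKM in MA9 macrophages and 169 and 62.1 FPKM in leukemia cells. Although the sum rose with iron in MA9 macrophages, only 4 of the 9 markers were higher there with iron. Klf1, the erythroid regulator, had 5.06 (PBS) and 3.27 (iron) FPKM in WT macrophages and 24.9 (PBS) and 15 (iron) FPKM in MA9 macrophages, while the leukemia cells had 0.756 and 1.10 FPKM. Neutrophil markers moved too: over 10 genes the sum was 8.38 (PBS) and 6.50 (iron) FPKM in WT macrophages, 1746 (PBS) and 887.6 (iron) FPKM in MA9 macrophages and 2780 and 2120 FPKM in leukemia cells, with 6 called higher in MA9 than in WT macrophages and a median difference of 3.98. S100a9, a calcium-binding protein of neutrophils, had 1.08 (PBS) and 1.03 (iron) FPKM in WT macrophages and 646 (PBS) and 342 (iron) FPKM in MA9 macrophages. All 10 B cell markers had differences below 0 with leukemia in the host (median -0.49), but none was called. The part of these cells in the Myb, Cdk6, Hoxa9, Hoxa10, Hoxa5 and Mef2c values was not tested. Among the genes around the 10, limma called 2 of the 12 MYC targets higher in MA9 than in WT macrophages, Odc1 (29.3 and 27.6 against 64.5 and 59.4 FPKM, limma difference 1.10, adjusted p = 0.0463) and Srm (26.7 and 23.7 against 64.8 and 48.8 FPKM, 1.14, adjusted p = 0.0443), and 2 of the 8 paralogs, Mef2b (1.85, adjusted p = 0.0463) and Mycn (1.02, adjusted p = 0.0497). These calls lie close to the threshold. The number of genes called in this comparison fell to 59 without the trend and to 1 without a filter on low values. The part of other cells in these differences was not tested either.

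Iron was the treatment of interest in the study, and it was read from 3 pairs of libraries with and without iron. The limma iron term called 0 of the 10 genes, and 0 of 17152 overall (0.0%), where 616 genes (3.59%) had an unadjusted p under 0.05 and the adjusted p of the 10 genes were 0.995 or more. The term ranged from -0.33 ± 0.17 for Myb to 0.14 ± 0.11 for Mef2c. No gene of the 10 reached a fold of 2 with iron on the log2(FPKM + 1) scale in any pair, against 1.3% of all genes in WT macrophages, 2.46% in MA9 macrophages and 0.856% in leukemia cells.

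In leukemia cells 3 of the 4 HOXA genes had nearly the same level with and without iron. Hoxa9 was at 1.01 times (0.969 to 1.06), Hoxa7 at 0.993 times (0.920 to 1.07) and Hoxa10 at 0.974 times (0.899 to 1.06) the level without iron, while Hoxa5 was at 0.856 times (0.788 to 0.930). Meis1 stood at 0.919 times (0.851 to 0.992) and Pbx3 at 1.03 times (0.952 to 1.12). Mef2c had the widest change, at 1.32 times (1.27 to 1.38), followed by Cdk6 at 1.18 times (1.16 to 1.21) and Myb at 1.09 times (1.06 to 1.12), and Myc was at 1.01 times (0.962 to 1.06). The counting intervals of Hoxa5, Meis1, Mef2c, Cdk6 and Myb exclude 1, but with 1 library on each side the spread between mice cannot be set beside them.

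In macrophages of leukemic mice, Cdk6 was at 0.50 times (0.464 to 0.538) and Myb at 0.578 times (0.537 to 0.621) the level without iron. Both ratios lay below those in WT macrophages, which were 0.958 times (0.882 to 1.04) for Cdk6 and 0.727 times (0.656 to 0.804) for Myb. Several measures move with this pair. In MA9 macrophages the iron difference fell with exon length: the median log2 difference was 0.21 in the fifth of genes with the shortest exons and -0.15 in the fifth with the longest, against -0.08 and 0.04 in the WT pair and 0.01 and 0.02 in leukemia cells. The 500 genes nearest in exon length to Cdk6 had a median of -0.24 in this pair, which leaves -0.63 of its difference of -0.87, and those nearest to Myb had -0.14, which leaves -0.58 of -0.72. Mef2c, with 15715 exon bases, was at 1.01 times (0.962 to 1.05), and since the genes nearest to it had a median of -0.25, it stood 0.26 above them. The summed myeloid progenitor markers were 236 FPKM in MA9 and 143 FPKM in MA9/FE macrophages and 0 of the 10 were higher with iron in this pair, while all 15 macrophage markers were higher with iron, with a median of 1.10. The shift of the macrophage markers is not particular to this pair, since all 15 were also higher with iron in the WT pair (median 0.96). Neutrophil markers went from 1746 to 887.6 FPKM in sum, with 1 of 10 higher (median -0.88), and all 10 B cell markers were higher with iron (median 0.57), from 1277 to 2209 FPKM in sum. The part of these shifts in the Cdk6 and Myb ratios was not tested further.

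Hoxa5 and Meis1 had wide intervals in macrophages, on few reads, while Myc and Mef2c had narrow ones. Hoxa5 was at 0.583 times (0.420 to 0.801) with iron in WT macrophages and 1.73 times (1.09 to 2.78) in MA9 macrophages, on 32 to 120 reads per library. The 500 genes nearest in exon length to Hoxa5 had a median of 0.25 in the MA9 pair, which leaves 0.20 of its log2 difference of 0.45, and -0.07 in the WT pair, which leaves -0.48 of -0.55. Meis1 was at 0.711 times (0.547 to 0.922) in WT and 0.902 times (0.715 to 1.14) in MA9 macrophages, and Myc at 0.778 times (0.733 to 0.826) and 0.934 times (0.884 to 0.987). Relative to genes of like exon length in the MA9 pair, Meis1 turned from -0.07 to 0.09 and Myc went from -0.10 to -0.29. Meis1 lay under 1 FPKM in both libraries of this pair, unlike the genes it was set against, so its turn cannot be read. Intervals of Hoxa7, Hoxa9 and Pbx3 included 1 in both macrophage pairs, which does not show that iron left them unchanged. Iron differences below 0 in both macrophage pairs and above 0 in leukemia cells were found in 3 of the 10 genes, Myb, Myc and Cdk6, and in 10.2% of all genes. Whether iron acted differently on leukemia cells and macrophages was tested with an interaction term, added after the data had been seen. It called 0 of 17152 genes (0.0%), with 424 (2.47%) at an unadjusted p under 0.05, and the 2 largest terms of the 10 genes were Cdk6 (0.70 ± 0.42) and Myb (0.68 ± 0.30), both with a limma adjusted p of 0.9999.

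**Figure D4:**
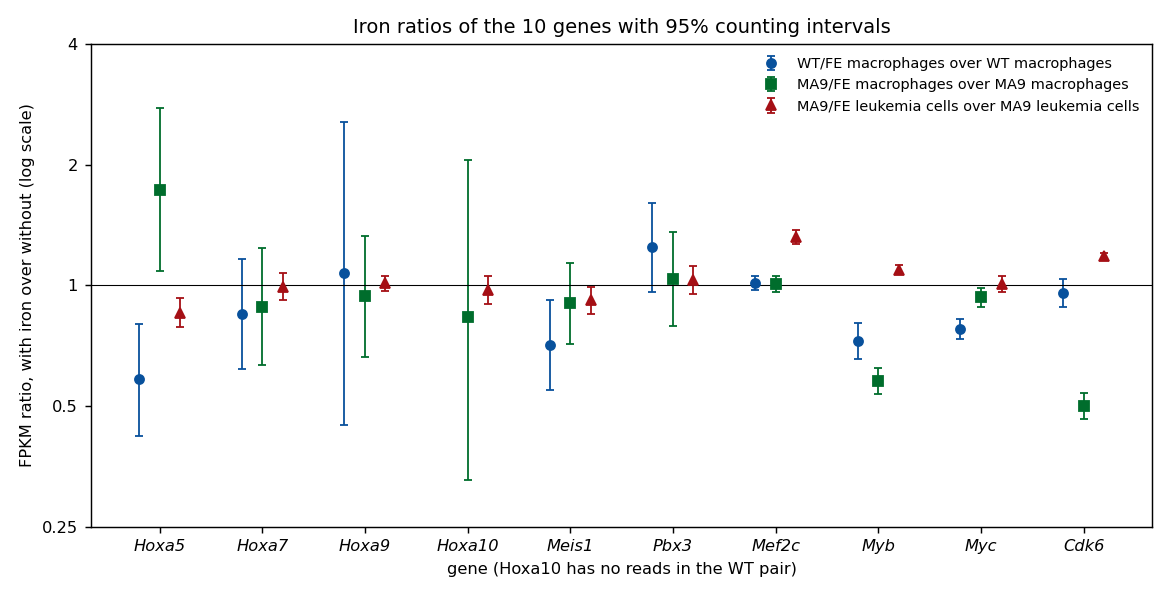
Ratio of FPKM with iron to FPKM without iron (vertical axis, log scale) for each of the 10 genes in WT macrophages (circles), MA9 macrophages (squares) and leukemia cells (triangles), with 95% counting intervals. In leukemia cells the ratios lie between 0.856 (Hoxa5) and 1.32 (Mef2c), and the lowest ratio in all 3 pairs is that of Cdk6 in MA9 macrophages (0.50).

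With iron on both sides, the gap between leukemia cells and macrophages of leukemic mice was wider for Cdk6 and Myb, as follows from the same 4 libraries. MA9/FE leukemia cells had 15.3 times (14.4 to 16.3) the Cdk6 level of MA9/FE macrophages, against 6.48 times (6.20 to 6.78) in the pair without iron, and the same ratios for Myb were 9.53 times (8.97 to 10.1) and 5.04 times (4.81 to 5.28). For Hoxa9 they were 55.4 times (43.4 to 72.0) and 51.4 times (40.9 to 65.5), which overlap. Hoxa5 narrowed from 36.6 times (25.8 to 53.7) without to 18.1 times (13.7 to 24.5) with iron, or on the log2(FPKM + 1) scale from 4.23 to 3.56, and relative to genes of like exon length from 4.03 to 3.65.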

How the data were processed

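RNA of sorted cells was measured in 6 libraries, 1 per condition, with conditions taken from the labels. The authors deposited FPKM for 54532 genes; the submitters' processing notes name Bowtie2 2.2.5, RSEM and mm10 without saying their roles, and the annotation was not given in the sources used here. FPKM times the GENCODE M21 exon length were whole multiples of 1 step per library, within 0.05 reads, for 96.8% to 97.0% of values above 0, which gave the depth and reads. At 16085346 to 19518359 reads, counting error is small for genes with many reads, and the unknown spread between mice limits what can be said. Because RSEM counts need not be whole, reads are approximate where they were not.

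Levels in the text are FPKM as deposited. Tests used log2(FPKM + 1) after TMM scaling (coded by hand) for the 17152 genes that had 10 or more reads in 2 or more libraries, in limma 3.58.1 (trend, R 4.3.3) with additive terms for kind of cell, iron and leukemia in the host, 2 residual degrees of freedom and Benjamini-Hochberg adjusted p-values called at 0.05. These p-values measure the spread between libraries around an additive model. The pseudocount understates changes of low genes. Fold counts between 2 libraries need a fold of 2 on this scale and have no test. The limma fit was tested on simulated reads, without the scaling step. Other steps used matplotlib 3.10.9, scipy 1.17.1, numpy 2.4.6 and pandas 2.3.3 in Python 3.11.15.

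Members and lists were chosen with earlier results of these data known, and some genes of the lists are not reported here or counted in them. Named genes are the 10 genes, up to 4 genes per list with the largest differences past the test, and the 5 genes most like Hoxa9; Hoxa genes, Pbx2, Max, Kmt2a, Dot1l, Men1, Ccnd3, Flt3, Odc1, Srm and the marker genes were named in addition after their values had been seen. The alternatives were other scalings, pseudocounts and filters, no trend, fewer terms, only leukemic mice, and leaving out each library; the interaction term and the comparison with genes of like exon length were added after the data had been seen.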

Additional observations from a re-analysis of the deposited data

Results flagged for a closer look

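For 3 of the 10 genes, the iron difference of leukemia cells and that of macrophages had opposite signs, with counting intervals that excluded no change on both sides. The share of all genes that meet this rule was not counted, so the 3 genes cannot be read as a trait of the list. Each side of each difference is 1 library, so the difference between mice is not in these intervals, and the pairs themselves were not tested. Cdk6 differed by 1.106 on the log2(FPKM + 1) scale between leukemia cells (0.2375) and MA9 macrophages (-0.8687). Myb differed by 0.8492 between leukemia cells (0.1264) and MA9 macrophages (-0.7227), and by 0.5077 between leukemia cells and WT macrophages (-0.3813). Hoxa5 differed by -0.6645 between leukemia cells (-0.2182) and MA9 macrophages (0.4463), and the sign in WT macrophages was that of the leukemia cells. Relative to the 500 genes nearest in exon length, these differences were 0.83 for Cdk6, 0.69 (MA9) and 0.52 (WT) for Myb and -0.39 for Hoxa5, whose value in MA9 macrophages became 0.20. Iron differences that were below 0 in both macrophage pairs and above 0 in leukemia cells, the pattern of Cdk6, Myb and Myc, were found in 10.2% of all 17152 genes. The interaction of kind of cell and iron, the nearest test, called none of the 3 genes (limma, adjusted p = 0.9999 for each).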

How the results depend on the processing

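With 1 library per condition, no result here has a replicate check, depth limits mainly Hoxa9 and Hoxa10 in macrophages, and kind of cell and labelled tissue cannot be told apart. No paired analysis was possible because each condition has 1 library and the groups share no replicate number that marks an animal. The difference between leukemia cells and macrophages kept its direction and its side of the threshold for all 10 genes in all 12 alternatives each (120 of 120). Part of this was fixed in advance, since WT macrophages enter the p-value of this difference but not its value. That value could not change without a WT or WT/FE library, with only leukemic mice or without the trend. The adjusted p of Myc ranged from 0.0509 to 0.669 and that of Mef2c from 0.151 to 0.927. Over all genes, 7421 were called in this comparison and leaving out 1 library gave 4041 to 8043, with 4041 without the MA9/FE and 4364 without the MA9 leukemia cells. The iron count of 0 became 4 without the MA9 and 7 without the MA9/FE leukemia cells. Of 110 iron values of the 10 genes under alternatives, 7 turned their sign, none of them called: Hoxa5 was at 0.1141 with only the libraries of leukemic mice and without either WT library (range with 1 library left out -0.3865 to 0.1141), and Hoxa9 at 0.0145 and Cdk6 at 0.0931 without either the MA9 or the MA9/FE macrophages (ranges -0.0137 to 0.0145 and -0.46 to 0.0931). Leaving out either library of an iron pair removes that pair from the term and gives the same value. Many of the 110 values are therefore repeats, and each turn is the loss of 1 of the 3 iron pairs. The count for leukemia in the host, 166, was 1 without a filter on low values, 503 with at least 50 reads, 59 without the trend, 29 without the other terms and 47 to 642 when 1 library was left out (47 without WT, 79 without WT/FE, 642 without MA9/FE macrophages, 426 without MA9 and 429 without MA9/FE leukemia cells). Counts of genes with a fold of 2 depended on the pseudocount. With 0.1 they were 789 in the WT iron pair, 1504 in the MA9 macrophage pair, 630 in leukemia cells, 1978 and 2084 for MA9 against WT macrophages without and with iron, and 5813 and 6503 for leukemia cells against macrophages, from 217, 406, 132, 790, 760, 3410 and 3845. Without a filter the 3 iron pairs gave 489, 733 and 371, and with at least 50 reads 119, 234 and 59. The cause of these shifts was not tested.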
